A study of Mus musculus with 4 samples.

Results

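Expression of 10 genes of glycolysis and of the cellular response to low oxygen was examined in WT and Haspin-KO mouse embryonic stem cells (mESCs). The rule that picked the genes used their symbols alone, and the choice was made with earlier results of these data known: Slc2a1, Hk2, Pfkp, Pgk1, Ldha, Pdk1, Bnip3, Vegfa, Egln3 and Ankrd37. Each symbol matched 1 of the 55401 genes in the deposited table, and all 10 were among the 15580 genes with enough counts to be tested. RNA-seq had been performed on E14 cells, a mouse embryonic stem cell line, with 2 WT libraries and 2 libraries with the genotype Haspin knockout, numbered as replicates 1 and 2 in each group. All 4 libraries came from cells kept in knockout-DMEM with fetal bovine serum, LIF and 2i, a pair of kinase inhibitors that hold mESCs in the naive state, and the labels give no other treatment. Haspin-KO clones had been made with CRISPR/Cas9 and a pair of guide RNAs against Haspin, the kinase of histone H3 threonine 3, and were picked as single clones that lacked this phosphorylation. The study describes more than one such line, and the labels do not say which line gave which library. Stock cells were passaged on mouse embryonic fibroblasts, with gelatin-coated dishes for assays, and the surface used for the RNA samples is not stated. Nothing says that the 2 libraries of a group came from separate cultures, so the p-values given here measure only the spread between these libraries, which may be technical.

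Glycolysis turns glucose into pyruvate in the cytosol, and lactate dehydrogenase turns pyruvate into lactate when it does not enter mitochondria. The transcription factors HIF-1 and HIF-2 pair an oxygen-regulated alpha subunit (Hif1a or Epas1) with Arnt. In normal oxygen, prolyl hydroxylases of the Egln family mark the alpha subunit for destruction by the Vhl ubiquitin ligase. When oxygen is scarce the alpha subunit persists, and genes of glucose uptake, glycolysis, mitochondrial removal and vessel growth are induced. Mouse ESCs in the naive state use both glycolysis and respiration, so that many glycolytic genes are highly expressed in them without low oxygen.

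The libraries held 14207828 to 21834847 counted reads, and the WT libraries were the larger ones. Haspin had 875 and 619 counts in WT cells and 149 and 209 in Haspin-KO cells, with a log2 fold change of -1.60 (SE 0.16, adjusted p = 0.00154 from edgeR). The summed level of 10 embryonic stem cell markers lay between 6383 and 6989 CPM in the 4 libraries. Of the 10, 0 passed the test, against 2.5% of all genes tested. The fibroblast markers, in contrast, differed between the groups. Their summed level was 314.0 and 232 CPM in WT cells and 65.1 and 59.2 CPM in Haspin-KO cells. At an adjusted p under 0.05, 7 of the 10 tested were lower in Haspin-KO cells, against 1.51% of all genes tested. Lox and Postn had 0 counts in both Haspin-KO libraries, while Fbn1 lay between 17.4 and 21.5 CPM in all 4. Of the 14 fibroblast markers listed, Dcn, Fap, Lum and Twist2 had too few counts to be tested. The part of these markers in the values below was not tested.

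Because HIF binds DNA at a short core that can be spelled ACGTG or GCGTG, the promoters of the genes were searched for these letters on both strands. RefSeq lists 13 start sites for the 10 genes (GRCm38.p6), each taken from 250 bases before to 50 after the start. ACGTG was found in 8 of these 13 promoters, against 19.6% of all 32851 promoters in the same table, and ACGTG or GCGTG in 11 of 13 against 43.8%. The genes were chosen as HIF-responsive, so the choice itself favoured promoters with the core, and the higher shares are no finding of these data. Ldha, Pdk1 and Vegfa enter with 2 starts each. The core ACGTG also lies inside CACGTG, an E-box that other factors bind and that 7.15% of all promoters held. The stretches below are shown because they hold ACGTG cores of 7 genes whose levels are given after them. Each is written 5′ to 3′ on the strand of its gene, with the cores of either strand in capitals, where CACGT is the core on the opposite strand.
Ldha, chr7:46845744-46845786, plus strand: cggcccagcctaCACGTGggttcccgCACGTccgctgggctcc
Pgk1, chrX:106186938-106186985, plus strand: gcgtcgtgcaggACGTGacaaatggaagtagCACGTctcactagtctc
Slc2a1, chr4:119108697-119108725, plus strand: gtcccgccccggACGTGctccccaggccc
Hk2, chr6:82774490-82774518, minus strand: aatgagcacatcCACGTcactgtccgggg
Bnip3, chr7:138909597-138909626, minus strand: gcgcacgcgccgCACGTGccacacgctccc
Egln3, chr12:54204087-54204115, minus strand: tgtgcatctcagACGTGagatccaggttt
Ankrd37, chr8:46000075-46000100, minus strand: cccagcagtACGTGcctagctcggct
The Ldha stretch holds 3 cores between -48 and -34 from the start, of which 2 are the opposite strands of 1 CACGTG. A further CACGTG, which likewise counts as a core on each strand, lies at -145 and -144. Hk2 has a further ACGTG core at -226 and Ankrd37 one at -6, in stretches that are not printed. Pdk1 and Pfkp had no ACGTG in these windows, but GCGTG occurred 4 times for Pfkp and 2 times at the first listed start of Pdk1. Vegfa had 1 ACGTG, before the second of its 2 listed starts, and none around the first.

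Per unit of gene length, the genes covered a wide range of levels. Ldha, which makes lactate from pyruvate, was the highest, at 165.5 to 278 FPKM over the 4 libraries. Hk2, the hexokinase that traps glucose as its phosphate, followed at 71.1 to 80.05 FPKM, and Slc2a1, the glucose transporter GLUT1, at 45.6 to 57.0 FPKM. Pgk1, the enzyme of the first ATP-yielding step, had 28.6 to 45.1 FPKM. Pfkp, the platelet-type subunit of phosphofructokinase, had 21.6 to 23.2 FPKM, and Pdk1, the kinase that switches off pyruvate dehydrogenase, had 9.42 to 18.8 FPKM. The ranges of these 6 genes did not overlap with one another. Below them the ranges of neighbouring genes did overlap, from Vegfa, a growth factor for blood vessels (2.31 to 6.46 FPKM), through Bnip3, a mitochondrial receptor for mitophagy (2.24 to 4.53 FPKM), and Egln3, one of the HIF prolyl hydroxylases (1.72 to 3.02 FPKM), to Ankrd37, an ankyrin repeat protein known as a HIF target (1.22 to 2.62 FPKM). The level of Pgk1 is uncertain, because 51.7% of the windows of 100 bases in its transcripts also occur in processed pseudogenes. How the authors counted reads that map to several places is not given in the sources used here.

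None of the 10 genes passed the test between Haspin-KO and WT cells. In edgeR's quasi-likelihood test, 0 of 10 had an adjusted p under 0.05, whereas 2.5% of all genes tested did (0.828% with a fold change over 2 as well). At an unadjusted p under 0.05 there were 2 of the 10 (Ldha and Pgk1), against 20.8% of all genes, and DESeq2 also called 0 of 10, against 3.63% of the genes for which it gave an adjusted p. With the replicate number as a block, 4 of the 10 passed (Ldha, Pgk1, Slc2a1 and Pdk1), all lower in Haspin-KO, against 22.6% of all genes in either direction and 11.2% downwards, but nothing in the labels says that equal numbers mark a pair. The fitted log2 fold changes ran from -0.50 for Ankrd37 to 0.04 for Egln3. Of the 10, 9 were below 0, compared with 50.6% of all genes tested, and their median was -0.22 against -0.0039 over all genes tested. In 2 of the 10 genes both Haspin-KO libraries lay below both WT libraries, and in 0 of 10 above. Such a separation was found for 26.9% of all genes tested downwards and 25.3% upwards, so that the count of 2 was close to the background. With library totals in place of TMM, 4 of the 10 were separated, and the share over all genes under that scaling was not counted. Within both replicate numbers, 7 of the 10 were lower in Haspin-KO and 0 higher, against 36.3% and 35.2% of all genes tested. An exact permutation test of 2 against 2 libraries cannot give a p below 0.333, and none was used. The groups were also compared as bulk RNA, in which fewer cells that express a gene and less RNA per cell cannot be told apart.

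**Figure D1:**
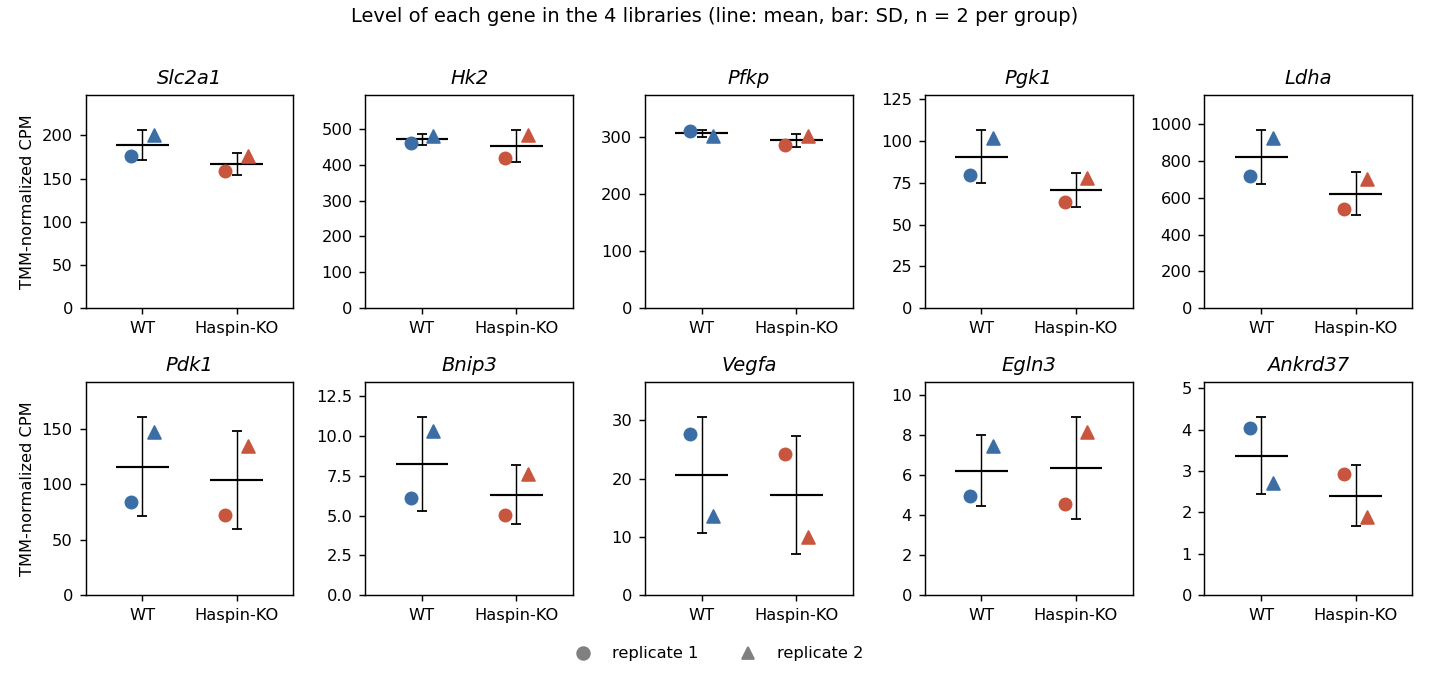
TMM-normalized CPM (y axis, starting at 0) of each of the 10 genes in the WT and Haspin-KO libraries, with circles for replicate 1, triangles for replicate 2, lines for the means and bars for the SD (n = 2 libraries per group). The Haspin-KO libraries lie below both WT libraries for Pgk1 and Ldha. In Hk2, Pdk1, Bnip3, Vegfa, Egln3 and Ankrd37 the replicates of each group stand further apart than the group means.

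Glucose enters the pathway through Slc2a1, which lies on chromosome 4 of mm10, from 119108711 to 119137983 on the plus strand. It had 176.2 CPM in WT replicate 1 and 201.0 in WT replicate 2, against 158 in Haspin-KO replicate 1 and 176.4 in Haspin-KO replicate 2. The higher Haspin-KO library thus barely passed the lower WT library. The log2 fold change was -0.17 (SE 0.090, adjusted p = 0.310), with a 95% interval from -0.37 to 0.03, that is, 77.2% to 102% of the WT level.

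Hk2 and Pfkp, the kinases of the upper part of the pathway, showed small differences and the narrowest intervals of the 10 genes. Hk2 (chromosome 6, 82725025 to 82774454, minus strand) had 459.9 and 481 CPM in WT cells and 419.8 and 483 CPM in Haspin-KO cells, replicates 1 and 2 in this order. Its log2 fold change was -0.06 (SE 0.081, 95% interval -0.24 to 0.12, adjusted p = 0.723). Pfkp (chromosome 13, 6579768 to 6648777, minus strand) had 311 and 302.5 CPM in WT cells and 286 and 302.6 CPM in the Haspin-KO libraries. The log2 fold change of Pfkp was also -0.06 (SE 0.069, 95% interval -0.21 to 0.10, adjusted p = 0.670). For both genes the groups overlapped, and the intervals reached no further down than 84.6% and 86.2% of the WT level. Exons of Pfkp overlap those of Pitrm1 on the opposite strand, and the strand setting of the counting is not given in the sources used here.

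The lower part of the pathway was represented by Pgk1 and Ldha, the pair whose groups did not overlap. Pgk1 (chromosome X, 106187100 to 106203699, plus strand) had 79.4 and 102 CPM in WT cells and 63.4 and 77.9 CPM in Haspin-KO cells. Both Haspin-KO values were below both WT values, by a narrow gap between the nearest ones. The log2 fold change was -0.36 (SE 0.13, 95% interval -0.66 to -0.06), with an adjusted p = 0.174 from edgeR (0.0243 before adjustment over all genes). Ldha (chromosome 7, 46841475 to 46855627, plus strand), the most abundant of the 10, had 720.4 and 926 CPM in WT cells and 542 and 705 CPM in the Haspin-KO libraries. Its log2 fold change was -0.40 (SE 0.14, 95% interval -0.71 to -0.09), with an adjusted p = 0.143 from edgeR (0.0159 before adjustment). Haspin-KO cells thus held 75.7% of the WT level of Ldha and 78.1% of that of Pgk1, without passing the test over all genes. Both calls depended on the libraries and the filter. Without Haspin-KO replicate 2, the log2 fold change was -0.60 for Ldha (adjusted p = 0.00606) and -0.51 for Pgk1 (adjusted p = 0.0419), and with no filter on low counts the adjusted p was 0.000367 and 0.0193. Adding the counts of the Pgk1 pseudogenes, of which Pgk1-rs7 alone had counts (11 to 26 per library), left the log2 fold change of Pgk1 at -0.36.

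**Figure D2:**
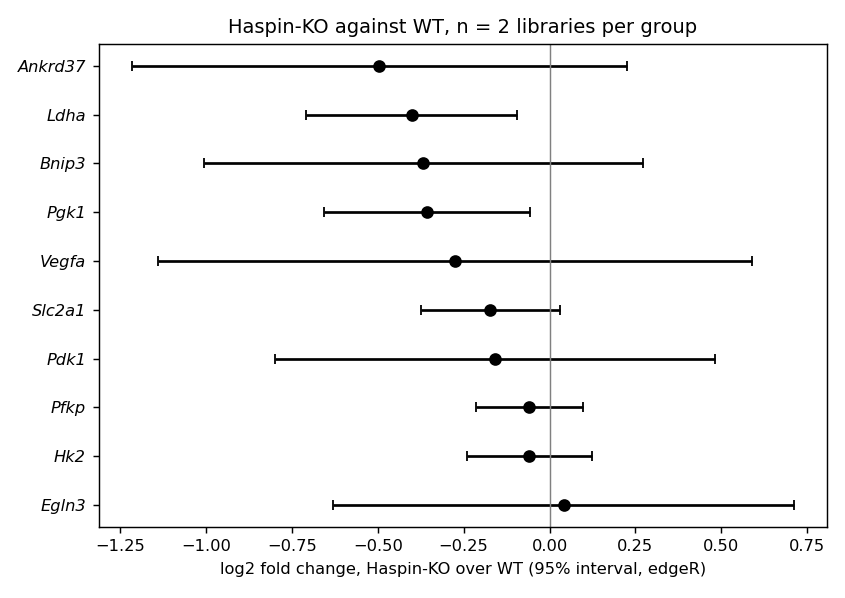
Log2 fold change of Haspin-KO over WT (x axis) for each of the 10 genes, with the 95% interval from edgeR's quasi-likelihood fit as bars (n = 2 libraries per group). The intervals of Ldha and Pgk1 lie below 0 before adjustment over all genes, those of Hk2 and Pfkp are the narrowest, and that of Vegfa, from -1.14 to 0.59, is the widest.

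At the branch between lactate and respiration stands Pdk1 (chromosome 2, 71873224 to 71903858, plus strand), which phosphorylates pyruvate dehydrogenase. It had 84.4 CPM in WT replicate 1 and 147 in WT replicate 2, and 72.5 and 135 CPM in the Haspin-KO replicates 1 and 2. The groups overlapped almost completely, while the libraries numbered 2 were far above those numbered 1. The log2 fold change was -0.16 (SE 0.28, adjusted p = 0.797), and its 95% interval from -0.80 to 0.48 would allow 57.5% to 139.6% of the WT level. With WT replicate 2 left out it was 0.30, and with Haspin-KO replicate 1 left out 0.22, so that its sign depended on the libraries used.

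Bnip3 (chromosome 7, 138890836 to 138909519, minus strand), the mitophagy receptor, was much less abundant. It had 134 and 179 raw counts in WT cells, or 6.13 and 10.3 CPM, and 72 and 109 in Haspin-KO cells, or 5.01 and 7.63 CPM. Again the groups overlapped, and replicate 2 was the higher library in both. Its log2 fold change was -0.37 (SE 0.28, 95% interval -1.01 to 0.27, adjusted p = 0.494), and 0.050 without WT replicate 2. Of the windows of 100 bases in its transcripts, 24.6% also occur in transcripts of other genes, among them the antisense gene Gm45507, whose exons overlap it, and the pseudogenes Gm16439 and Gm6532. The counts of Bnip3 are uncertain to that extent.

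Vegfa (chromosome 17, 46016993 to 46032369, minus strand), the secreted factor among the 10, varied most. It had 604 and 235 raw counts in WT cells, which is 27.6 and 13.6 CPM, and 349 and 143 in Haspin-KO cells, which is 24.3 and 10.02 CPM. Replicate 1 was the higher library in both groups, opposite to Pdk1 and Bnip3. The log2 fold change was -0.28 (SE 0.38, 95% interval -1.14 to 0.59, adjusted p = 0.728). Leaving out single libraries moved it from -1.05 without Haspin-KO replicate 1, where it passed the test (adjusted p = 0.0337), to 0.34 without WT replicate 1, and it was 0.22 without Haspin-KO replicate 2.

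The oxygen sensor Egln3 (chromosome 12, 54178981 to 54203860, minus strand) had 4.94 and 7.44 CPM in WT cells and 4.53 and 8.12 CPM in Haspin-KO cells, from 65 to 129 raw counts per library. It was the only one of the 10 genes with a fitted log2 fold change above 0 in the comparison of all 4 libraries, at 0.04 (SE 0.30, 95% interval -0.63 to 0.71, adjusted p = 0.957), and the value was -0.44 without Haspin-KO replicate 2 and -0.23 without WT replicate 1. Ankrd37 (chromosome 8, 45996902 to 46005707, minus strand) was the least abundant, with 88 and 47 counts in WT cells and 42 and 27 in Haspin-KO cells. These correspond to 4.03 and 2.71 CPM in WT cells and to 2.92 and 1.89 CPM in Haspin-KO cells, and the groups overlapped. Its log2 fold change of -0.50 (SE 0.32, adjusted p = 0.409) was the lowest of the 10 but had an interval from -1.22 to 0.23. Exons of Ankrd37 overlap those of Lrp2bp and Ufsp2 on the opposite strand.

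Within each group, the 2 libraries differed more than the groups did for 6 of the 10 genes (Hk2, Pdk1, Bnip3, Vegfa, Egln3 and Ankrd37), against 30.9% of all genes tested. The median size of the log2 ratio of replicate 1 to replicate 2 over the 10 genes was 0.47 in WT and 0.49 in Haspin-KO, compared with 0.14 and 0.15 over all genes tested. In 7 of the 10 genes replicate 2 was the higher library in WT and in Haspin-KO alike, a pattern shown by 30.7% of all genes tested. Vegfa and Ankrd37 were higher in replicate 1 in both groups, as were 30.9% of all genes, and Pfkp differed in sign between the groups.

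Pdk1 was 1.75-fold higher in replicate 2 than in replicate 1 of WT, with a 95% exact binomial interval of 1.64 to 1.86 that covers counting error only. In Haspin-KO the same ratio was 1.86 (1.72 to 2.01). Vegfa went the other way, 2.04-fold higher in replicate 1 of WT (1.75 to 2.38) and 2.43-fold higher in replicate 1 of Haspin-KO (1.99 to 2.97). Only 2.63% of all genes tested had a replicate difference at least as large as that of Vegfa in WT, and 2.25% in Haspin-KO. For Pdk1 these shares were 4.85% and 5.56%. Egln3 was 1.51-fold (1.16 to 1.96) and 1.80-fold (1.31 to 2.47) higher in replicate 2, and Bnip3 1.68-fold (1.34 to 2.12) and 1.52-fold (1.12 to 2.08).

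Ldha, Pgk1, Slc2a1 and Hk2 were also higher in replicate 2 in both groups, by smaller ratios. Ldha was 1.29-fold higher in replicate 2 of WT and 1.30-fold higher in replicate 2 of Haspin-KO, and Pgk1 1.28-fold and 1.23-fold. For Slc2a1 the ratios were 1.14 and 1.11, and for Hk2 1.04 and 1.15. In WT, 9 of the 10 genes differed between the libraries beyond counting error, Pfkp being the exception. In Haspin-KO 9 of 10 did, Ankrd37 being the exception (1.55-fold higher in replicate 1, 0.931 to 2.61). The share over all genes was not counted. These intervals narrow with depth, so that Hk2 passed in WT at 1.04-fold, and the counts of 9 are no trait of these genes. The libraries differed by more than 1.5-fold for 4 of the 10 genes in WT and 5 in Haspin-KO, against 9.18% and 12.2% of all genes tested. A difference of this size in the same direction in both groups was found for Pdk1, Vegfa, Egln3 and Bnip3, 4 of 10, against 3.02% of all genes tested. Egln3 in WT lay just inside this limit and Ankrd37 in WT, at 1.49-fold, just outside. With library totals in place of TMM the count was 2, and the share over all genes under that scaling was not counted.

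The summed level of the fibroblast markers was also higher in replicate 1 than in replicate 2 of WT (314.0 against 232 CPM), and its difference in Haspin-KO was small beside it (65.1 against 59.2 CPM). The part of these markers in the replicate differences of the 10 genes was not tested. No text says that libraries with the same number were prepared together.

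**Figure D3:**
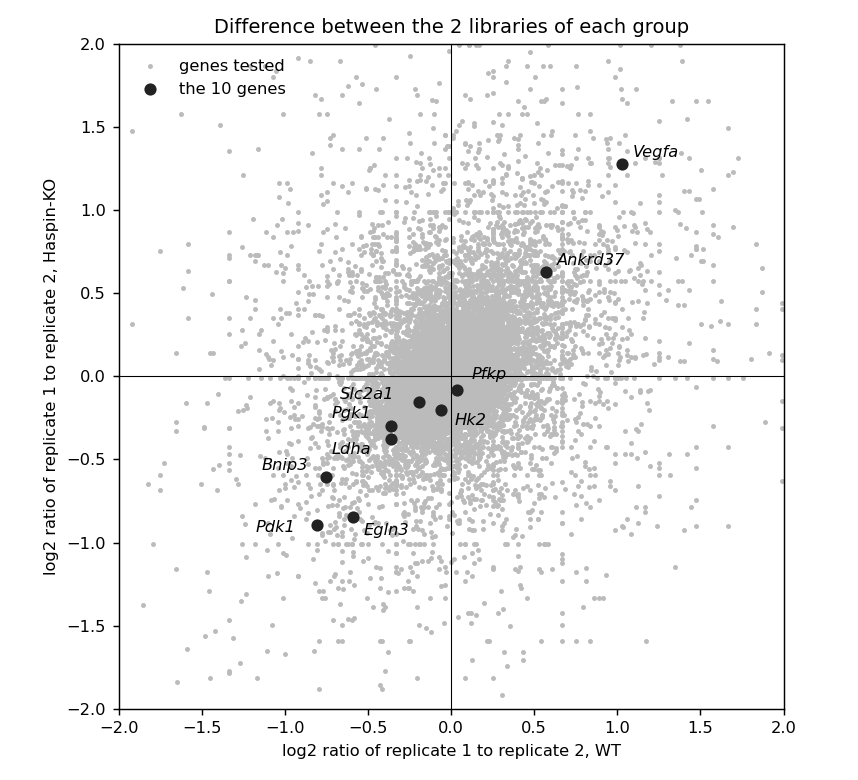
Log2 ratio of replicate 1 to replicate 2 in WT (x axis) and in Haspin-KO (y axis) for the genes tested (grey) and the 10 genes (black, labelled), on TMM-normalized CPM. Vegfa and Ankrd37 lie in the upper right quadrant and Pdk1, Egln3, Bnip3, Ldha, Pgk1, Slc2a1 and Hk2 in the lower left, and 92 genes fall outside the plotted range and 13 have a library at 0.

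Other genes of the same pathways were taken from 4 lists. Of 27 tested entries for other glycolytic enzymes and transporters, 0 were higher and 2 lower in Haspin-KO cells at an adjusted p under 0.05, against 0.988% and 1.51% of all genes tested. Their median log2 fold change was -0.25, close to that of the 10 genes, and 20 of the 27 were below 0, against 50.6% of all genes tested. At an unadjusted p under 0.05 there were 12 of 27, against 20.8%. Both Haspin-KO libraries lay below both WT libraries for 12 of 27 and above them for 3, against 26.9% and 25.3%. Ldhb, the heart-type subunit of lactate dehydrogenase, had 152 and 178 CPM in WT cells and 82.6 and 96.8 CPM in Haspin-KO cells. It fell by 0.88 on the log2 scale (SE 0.10, adjusted p = 0.00422). Slc2a3, the high-affinity glucose transporter GLUT3, had 1945 and 2207 CPM in WT cells and 1513 and 1638 CPM in Haspin-KO cells. It fell by 0.40 (SE 0.080, adjusted p = 0.0359). Both genes were separated between the groups. The call of Ldhb was lost without WT replicate 2 (adjusted p = 0.0672), and that of Slc2a3 without WT replicate 1 (0.120) or WT replicate 2 (0.187).

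Slc16a3, the lactate exporter MCT4, had the lowest value of that list, a log2 fold change of -0.99 (SE 0.44, adjusted p = 0.234). It had 13.6 and 32.6 CPM in WT cells and 6.48 and 16.5 CPM in Haspin-KO cells, so that replicate 2 exceeded replicate 1 in both groups, as for Pdk1. At the upper end were Pfkfb3, which makes an activator of phosphofructokinase (0.45, SE 0.17, adjusted p = 0.182), and Pfkm, the muscle-type subunit (0.19, SE 0.11, adjusted p = 0.370). In 15 of the 27 entries replicate 2 was the higher library in both groups and in 3 replicate 1 was, against 30.7% and 30.9% of all genes tested. Of the 31 entries found, 4 had too few counts to be tested, among them Pgk2, and Aldoa is listed under 2 identifiers.

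Among 26 tested genes of the hypoxia response outside the 10, 1 was higher and 1 lower at an adjusted p under 0.05. The shares over all genes tested were 0.988% and 1.51%. The median log2 fold change of the 26 was 0.06, and 8 had an unadjusted p under 0.05, against 20.8% of all genes tested. Tfrc, the transferrin receptor, had 371 and 375 CPM in WT cells and 508 and 457 CPM in Haspin-KO cells, a rise of 0.37 (SE 0.074, adjusted p = 0.0341). The call of Tfrc was lost without WT replicate 1 (adjusted p = 0.255), WT replicate 2 (0.159) or Haspin-KO replicate 1 (0.107). Car9, Ddit4 and Igfbp3, also at the ends of this list, did not pass the test. Car9, a carbonic anhydrase, had 35 and 14 counts in WT cells and 5 and 8 in Haspin-KO cells (log2 fold change -1.42, SE 0.52, adjusted p = 0.169). Ddit4, an inhibitor of mTORC1, had a log2 fold change of 0.61 (SE 0.27, adjusted p = 0.234) and was higher in replicate 1 of both groups, and Igfbp3 had 0.48 (SE 0.17, adjusted p = 0.144).

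The oxygen-sensing machinery itself had 17 genes tested, of which 0 passed in either direction at an adjusted p under 0.05 (7 at an unadjusted p under 0.05), against 2.5% and 20.8% of all genes tested, and the median log2 fold change was 0.0065. Hif1a had 147 and 155 CPM in WT cells and 182 and 189 CPM in the Haspin-KO libraries. Its log2 fold change was 0.30 (SE 0.073, adjusted p = 0.0650). Epas1, which encodes HIF-2 alpha, had 19.6 and 25.6 CPM in WT cells and 32.0 and 36.8 CPM in Haspin-KO cells, with 0.61 (SE 0.14, adjusted p = 0.0595). The lowest values belonged to the negative regulators Egln1 (-0.40, SE 0.11, adjusted p = 0.0843) and Vhl (-0.33, SE 0.091, adjusted p = 0.0886). These 4 genes were named as the ends of the list, so that their own separation between the groups is no finding. Of all 17 genes, 4 had both Haspin-KO libraries below both WT libraries and 4 had them above. The shares over all genes tested were 26.9% and 25.3%.

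Of 12 genes for the pyruvate dehydrogenase complex and its other kinases and phosphatases, 0 passed at an adjusted p under 0.05 (3 at an unadjusted p under 0.05), against the same 2.5% and 20.8% of all genes tested, with a median log2 fold change of 0.09. Pdk3, a kinase of the same family as Pdk1, had 0.26 (SE 0.095, adjusted p = 0.170) and Pdk2 had -0.50 (SE 0.20, adjusted p = 0.194). Dld, the dihydrolipoamide dehydrogenase of the complex, had 0.14 (SE 0.081, adjusted p = 0.369). Pdha2, the testis form of the catalytic subunit, rested on 16 and 13 counts in WT cells and 4 and 2 in Haspin-KO cells, with a fitted value of -1.79 (SE 0.58, adjusted p = 0.128).

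**Figure D4:**
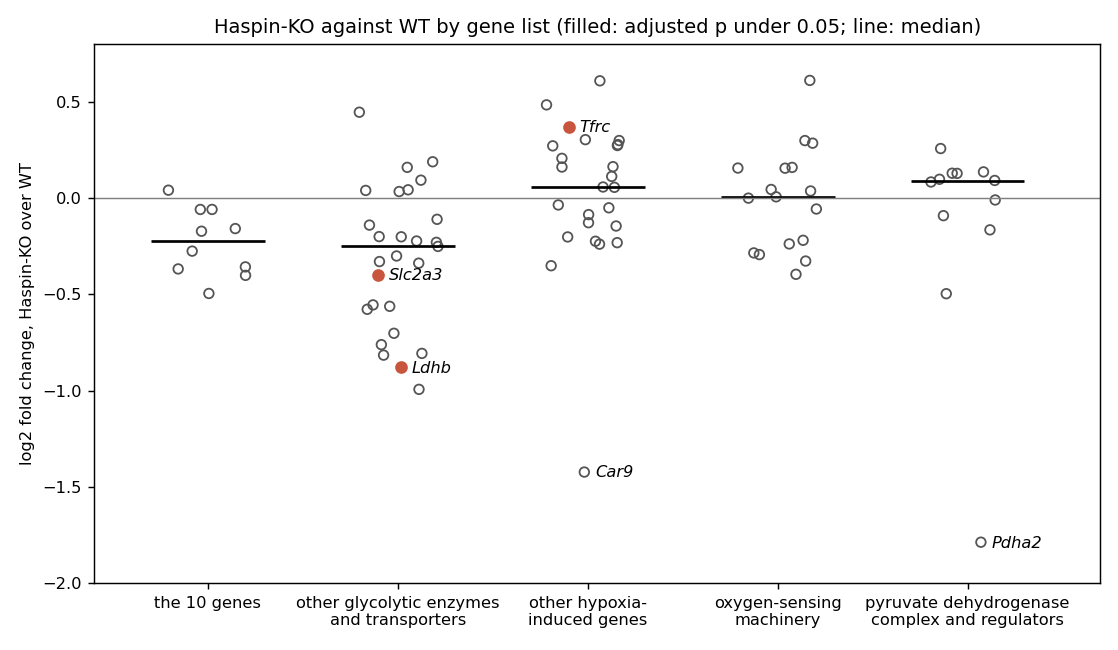
Log2 fold change of Haspin-KO over WT (y axis) for the 10 genes and the tested genes of the 4 pathway lists (x axis), with filled points at an adjusted p under 0.05 in edgeR's test and lines at the medians. The medians are -0.22 for the 10 genes and -0.25 for the other glycolytic genes and lie between 0.0065 and 0.09 for the remaining 3 lists, while Ldhb, Slc2a3 and Tfrc are filled and 1 gene lies below the plotted range.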

How the data were processed

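RNA was sequenced from WT and Haspin-KO mESCs (2 libraries each). Per the study's methods and the submitters' processing notes, the authors trimmed reads (Cutadapt, 1.9.1) before mapping to mm10 (HISAT2, 2.0.1). The notes also list HTSeq (0.6.1), without its role. The deposited counts are raw reads per gene, and the FPKM values deposited by the authors are scaled by exonic length and by the counted reads of each library. Reads that map to several places can be lost from genes with near-identical copies, which lowers their counts.

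Counts were filtered, TMM-normalized and tested with edgeR (4.0.16) in R (4.3.3), by its quasi-likelihood test with Benjamini-Hochberg adjustment over all genes, without a block. CPM are relative to TMM-scaled totals. Each SE was obtained from the log2 fold change and its F statistic. Alternatives were DESeq2 (1.42.0), limma (3.58.1) on log2(FPKM + 0.1) or log2(FPKM + 1) where at least 2 libraries had 0.5 FPKM or more, other scalings and filters, the replicate number as a block, and each library left out in turn. Pgk1 with its pseudogenes, and differences within a replicate number, were added after seeing the data. Ratios between replicates carry exact (Clopper-Pearson) intervals for counting error only. Gene positions are those of the deposited table and equal GENCODE M21 (GRCm38). Scripts were tested on simulated data.

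The 10 genes and all lists were chosen with earlier results of these data known. Named genes were the 10, Haspin, and from each pathway list the genes with an adjusted p under 0.05 (at most 4 in each direction) with the 2 highest and 2 lowest log2 fold changes. Of the markers, those that give a list's range were named. Some genes of the lists that this rule names, or that were not tested, are not reported here.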

Additional observations from a re-analysis of the deposited data

How the results depend on the processing

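Each of the 10 genes kept its direction under the other scalings, filters and tools and under the block. Signs changed only when a library was left out, for Vegfa (-1.05 to 0.34), Egln3 (-0.44 to 0.41), Pdk1 (-0.67 to 0.30), Bnip3 (-0.71 to 0.050) and Hk2 (-0.16 to 0.042). A library left alone in its group was assumed to vary like the other group. Of the 10 genes, 0 were called with 4 libraries, against 2.5% of all genes tested, and 2 were called with no filter. How many genes were tested with no filter was not counted, so the counts called there, here and below, have no share beside them. Genes of the 4 lists called numbered 4 with 4 libraries, 1 to 11 with a library left out, 18 with no filter and 0 with either limma fit. Over all genes, 390 were called, 129 of them with a fold change over 2. These counts were 1172 and 265 with no filter, 465 and 92 with DESeq2, 351 and 88 with at least 10 counts in every library, 0 and 0 with either limma fit, and 35 to 629 and 30 to 215 with a library left out. The median of the 10 genes stayed between -0.35 and -0.07. With library totals, 4 genes were separated in place of 2, and 2 in place of 4 passed 1.5-fold between replicates. The shares over all genes under that scaling were not counted. The causes were not tested.

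With the replicate number as a block, 4 of the 10 genes were called, all lower in Haspin-KO cells: Ldha (-0.40, adjusted p = 4.3e-09), Pgk1 (-0.36, 1.2e-05), Slc2a1 (-0.17, 0.0313) and Pdk1 (-0.17, 0.0467). The same fit called 33 genes of the 4 lists, 3514 genes in all (22.6% of those tested) and 407 with a fold change over 2. It leaves 1 residual degree of freedom. Its prior degrees of freedom were infinite, against 7.42 without a block, so the spread of each gene was set by the trend over all genes. The small p-values of this fit rest on that setting. Replicate differences in WT and in Haspin-KO had r = 0.338 across the 15580 genes, on log2(CPM + 0.5), and genes are not independent replicates. The labels give the libraries a shared number and nothing more, and whether equal numbers mark pairs was not tested. Within both numbers, 7 of the 10 genes were lower in Haspin-KO cells, against 36.3% of all genes tested. Ankrd37, at 27 to 88 counts, is where depth limits the comparison most.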
